A study of Mus musculus with 10 samples.

Results

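Transcripts of 10 Klf genes (Klf2, Klf3, Klf4, Klf5, Klf6, Klf9, Klf10, Klf13, Klf16 and Klf17) were followed in mouse morulae. They were listed by gene symbol, with earlier results of these data known, and all 10 were present among the 24411 genes of every library table. RNA was sequenced from pools of 10 embryos after a zygote injection, at 3 to 6 h after insemination, of an antisense oligonucleotide (ASO). The ASO either targeted Mettl3, the catalytic subunit of the RNA m6A methyltransferase (Mettl3-ASO, 5 libraries), or was a non-targeting one (ASO-Control, 5 libraries). Embryos of both groups came from in vitro fertilization of superovulated oocytes and were cultured in KSOM medium until harvest as morulae at 72 h. The labels give the strain as ICR for replicates 1 and 2 of both groups, which carry no batch tag and are called untagged here. Replicates 3 to 5 of both groups are tagged as batch 2, with no strain given. Whether libraries came from separate fertilizations is not stated, so p-values measure the spread between libraries, which may be technical.

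The Klf genes encode zinc-finger transcription factors that bind GC-rich and CACCC-type DNA elements through a conserved C-terminal domain. Family members differ in the partners they recruit: Klf2, Klf4, Klf5 and Klf6 are known mostly as activators, Klf3 recruits the CtBP corepressors, and Klf9, Klf10, Klf13 and Klf16 bind the Sin3 corepressor. In mouse embryonic stem cells Klf2, Klf4 and Klf5 share much of the work of keeping the naive pluripotent state, and mouse embryos without Klf5 fail around the blastocyst stage. Klf17 is known from oocytes and early cleavage in the mouse, and in human cells it marks naive pluripotency.

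Promoter windows were available for 7 of the 10 genes, and those of the largest rise, of the most abundant gene that rose and of the largest fall are shown. Each is the 250 bases before the RefSeq start (GRCm38.p6), 5′ to 3′ on the gene's strand, with every CACCC or its reverse complement GGGTG in capitals.
Klf17, chr4:117765667-117765916, minus strand: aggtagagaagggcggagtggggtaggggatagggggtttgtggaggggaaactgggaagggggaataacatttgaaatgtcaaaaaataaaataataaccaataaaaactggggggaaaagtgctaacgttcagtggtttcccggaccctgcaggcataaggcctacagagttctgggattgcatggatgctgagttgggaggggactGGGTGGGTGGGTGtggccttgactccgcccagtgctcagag
Klf2, chr8:72318812-72319061, plus strand: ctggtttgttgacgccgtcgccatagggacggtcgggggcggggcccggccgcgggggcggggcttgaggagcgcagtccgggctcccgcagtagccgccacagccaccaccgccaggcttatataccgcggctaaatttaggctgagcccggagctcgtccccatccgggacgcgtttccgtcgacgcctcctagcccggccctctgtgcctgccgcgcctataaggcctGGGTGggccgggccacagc
Klf6, chr13:5861239-5861488, plus strand: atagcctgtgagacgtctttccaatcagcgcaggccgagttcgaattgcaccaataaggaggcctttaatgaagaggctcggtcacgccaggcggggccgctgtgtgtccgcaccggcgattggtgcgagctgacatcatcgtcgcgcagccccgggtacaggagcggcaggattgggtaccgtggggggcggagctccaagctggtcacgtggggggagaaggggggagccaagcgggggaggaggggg
The Klf17 window held 3 such elements in a row, beginning 41, 37 and 33 bases before the start and each overlapping the next by a single base. The Klf2 window held 1, beginning 19 bases before the RefSeq start. GENCODE starts Klf2 farther upstream, so the last 29 bases of that window, this element among them, lie inside the gene as GENCODE places it. The Klf6 window held 0, and its last 7 bases lie inside the GENCODE gene. Of the 7 windows 5 held the element, as did 52.01% of the 32851 windows of that length over all genes. The GC box GGGCGG, in either strand, was in 6 of the 7 windows and in 32.74% of all windows. The GC content of the printed windows was 52.0% for Klf17, 71.2% for Klf2 and 64.8% for Klf6. A match to these letters is a description of the sequence and not evidence of binding.

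Total expected counts (the reads that the authors estimated per gene) were 9905830 to 13530284 in untagged libraries and 21412857 to 32327283 in batch 2. Mettl3 itself stood at 0 to 0.04 FPKM (fragments scaled by gene length and library size) in Mettl3-ASO and 6.58 to 12.68 FPKM in ASO-Control. Of 8 markers of the morula, none was at 0 throughout either group, 1 (Dppa3) rose and 5 (Krt18, Gata3, Krt8, Pou5f1 and Cdx2) fell. In this comparison 49.4% of tested genes were called, 25.4% higher and 24% lower. The call of Cdx2 (edgeR adjusted p = 0.042) was lost in 13 alternatives beside the untagged libraries. Of 8 cumulus cell markers, all stayed below 1 FPKM in every library, and Has2, Ptgs2, Amh and Cyp19a1 were at 0 throughout. Sperm markers summed to 0.25 to 3.04 FPKM in Mettl3-ASO and 0.51 to 2.13 FPKM in ASO-Control. Of 7 fibroblast and blood markers, 6 stayed below 1 FPKM. The exception, the haemoglobin gene Hba-a1, was at 24.3 to 57.5 FPKM in Mettl3-ASO and 28.5 to 62.4 FPKM in ASO-Control. Hba-a1 did not differ by the test (log2 fold change −0.20 ± 0.32 SE, edgeR adjusted p = 0.631). The haemoglobin gene Hbb-bs was at 0 in every library. In pooled embryos, fewer cells of a type and less RNA per cell cannot be told apart.

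Of the 10 Klf genes, 5 rose after Mettl3-ASO injection (Klf2, Klf3, Klf4, Klf9 and Klf17), 4 fell (Klf5, Klf6, Klf10 and Klf13) and Klf16 did not pass the test. A gene was called at an adjusted p under 0.05 in edgeR's quasi-likelihood test with Benjamini-Hochberg adjustment over the 9522 genes whose FPKM averaged 1 or more. In that test 49.4% of all tested genes were called, 25.4% higher and 24% lower, so calls are common in this comparison. The members were chosen with earlier results of these data known. Of the 4 other Klf genes that were tested, 1 was called. All 10 members passed the filter on mean FPKM. Klf17 passed it only through its level in Mettl3-ASO, since its mean in ASO-Control was 0.516 FPKM. The FPKM ranges of the groups did not overlap for 5 members (Klf2, Klf3, Klf4, Klf10 and Klf17), against 25.6% of all tested genes (15% with Mettl3-ASO wholly above and 10.6% wholly below). Of the 5, 4 were wholly above and Klf10 was wholly below. With the replicate number as a block, 55.1% of tested genes were called and the members' calls were as before. Within the untagged libraries and within batch 2 the FPKM ranges of the groups were apart for 9 members, each time in one direction, against 39.6% of tested genes.

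**Figure D1:**
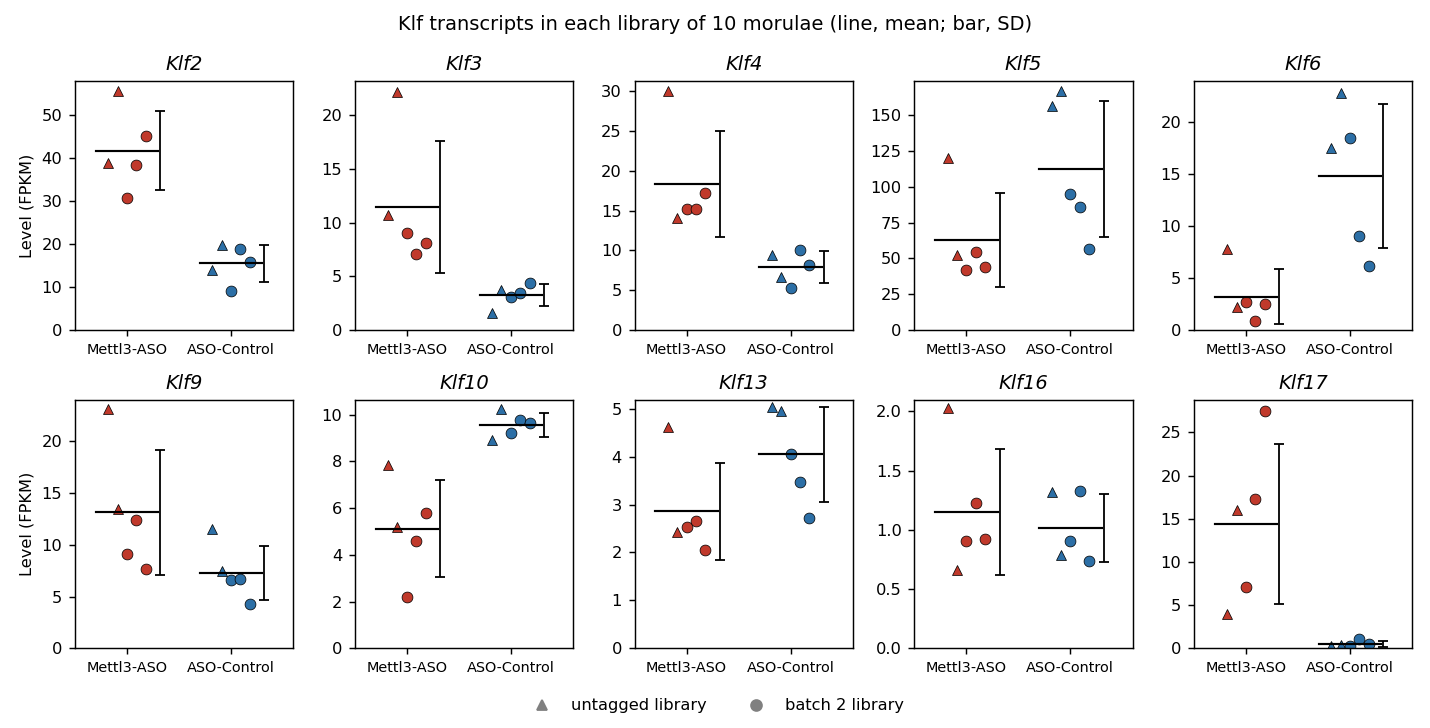
Level of each Klf gene in FPKM (vertical axes, each from 0) in Mettl3-ASO and ASO-Control libraries; triangles are untagged and circles batch 2 libraries, horizontal lines are means and bars SDs (n = 5). Klf17 stood at 3.98 to 27.45 FPKM in Mettl3-ASO and at 0.25 to 1.06 FPKM in ASO-Control, while Klf5 and Klf6 were lower in Mettl3-ASO within each batch.

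Klf17 had the largest change of the family. It was at 3.98, 16.0, 7.15, 17.3 and 27.5 FPKM in Mettl3-ASO replicates 1 to 5. In ASO-Control replicates 1 to 5 it was at 0.33, 0.45, 0.25, 1.06 and 0.49 FPKM. Every Mettl3-ASO library was above every control, and replicate 1 was the lowest of its group. The mean was 14.4 ± 9.25 FPKM in Mettl3-ASO and 0.516 ± 0.319 FPKM in ASO-Control (SD, n = 5 each). Klf17 rose 27.4-fold (log2 fold change 4.78 ± 0.54, SE; edgeR adjusted p = 2.14e-05). The Mettl3-ASO values rest on 182 to 1983 counts per library and those of ASO-Control on 14 to 114. The mean in ASO-Control was under the filter's limit, so Klf17 was tested only through its level in Mettl3-ASO. Klf17 occupies bases 117757836 to 117765648 of chromosome 4 (GRCm38, minus strand), and its annotated transcript has 3 exons.

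Genes known from the two-cell stage were measured beside Klf17. The summed level of 11 such genes was 1114 to 3580 FPKM in Mettl3-ASO and 3.18 to 18.6 FPKM in ASO-Control. Of the 11, 8 averaged under 1 FPKM in ASO-Control and entered the test only through Mettl3-ASO, so no count of calls is given for them. No gene of that list was at 0 throughout either group. The genes of that list did not all run alike over the libraries. The 5 measured Zscan4 genes summed to 331, 227, 1.98, 402.5 and 1.22 FPKM in Mettl3-ASO replicates 1 to 5, against 0 to 2.71 FPKM in ASO-Control. Klf17 was highest in replicate 5 and lowest in replicate 1, while the Zscan4 sum was high in replicate 1. That sum lay within its control range in replicates 3 and 5. Tcstv3, of the same list, was at 154, 390, 594, 830 and 1574 FPKM in Mettl3-ASO replicates 1 to 5, against 0.95 to 7.09 FPKM in ASO-Control. Tcstv3, like Klf17, was lowest in replicate 1 and highest in replicate 5, as was Zfp352. The remaining genes of the list ran otherwise. Usp17lb was lowest in replicate 5 (10.8 FPKM). Tcstv1 was highest in replicate 5 but lowest in replicate 3 (32.7 FPKM). Gm5662 and Tdpoz4 were lowest in replicate 1 but highest in replicate 4 (1614 FPKM) and replicate 2 (166 FPKM). These genes were picked after their values were seen. The Zscan4 and Tcstv genes have close copies, so the level of any one of them is uncertain. Oocyte-deposited transcripts summed over 10 genes to 16.5 to 32.1 FPKM in Mettl3-ASO and 5.02 to 8.85 FPKM in ASO-Control. The part of these stage markers in the level of Klf17 was not tested.

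The activators Klf2, Klf4 and Klf5, which overlap in function in mouse embryonic stem cells, went in different directions. Klf2 was at 38.8, 55.6, 30.8, 38.4 and 45.1 FPKM in Mettl3-ASO replicates 1 to 5. It was at 13.9, 19.8, 9.13, 18.9 and 15.9 FPKM in ASO-Control replicates 1 to 5. All 5 Mettl3-ASO libraries lay above all 5 controls, and Klf2 rose 2.62-fold (log2 1.39 ± 0.22, SE; edgeR adjusted p = 2.95e-04). Klf4, known as a reprogramming factor, was at 30.1, 14.0, 15.2, 15.3 and 17.2 FPKM in Mettl3-ASO replicates 1 to 5. In ASO-Control replicates 1 to 5 it was at 9.41, 6.65, 5.23, 10.1 and 8.19 FPKM. The groups did not overlap, replicate 1 of Mettl3-ASO stood apart as the highest, and Klf4 rose 2.20-fold (log2 1.14 ± 0.22; edgeR adjusted p = 9.43e-04).

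Klf5 moved the other way. It was at 120, 52.3, 42.1, 54.3 and 44.1 FPKM in Mettl3-ASO replicates 1 to 5, and at 156, 167, 95.3, 86.1 and 56.4 FPKM in ASO-Control replicates 1 to 5. The groups overlapped over all libraries, because Mettl3-ASO replicate 1 was above all 3 batch 2 controls. Within each batch every Mettl3-ASO library was below every control. Klf5 fell by 0.87 ± 0.18 on the log2 scale (SE; edgeR adjusted p = 0.00185). Among the controls, both untagged libraries were above all 3 of batch 2. In GRCm38, Klf5 lies on chromosome 14 at 99298691 to 99315036, Klf2 on chromosome 8 at 72319033 to 72321656 and Klf4 on chromosome 4 at 55527143 to 55532466.

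**Figure D2:**
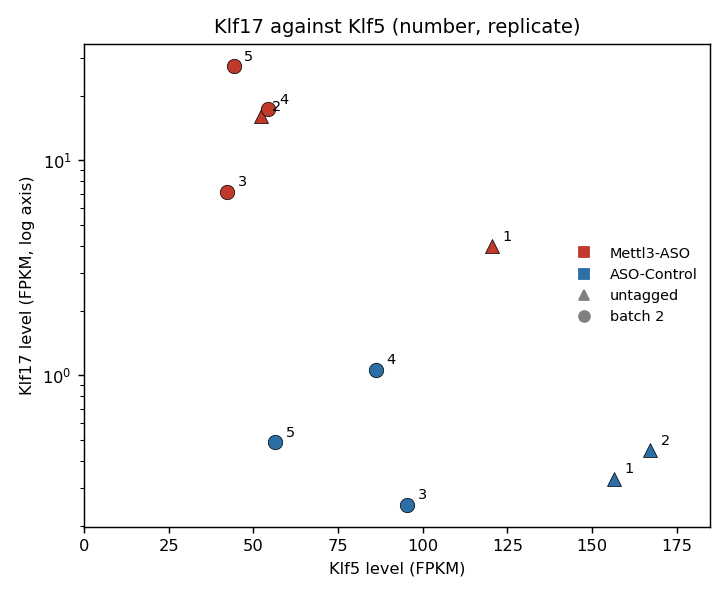
Klf17 level (FPKM, log axis) against Klf5 level (FPKM) in each library, numbered by replicate; colours mark the group and shapes the batch. The 5 Mettl3-ASO libraries lie above 3 FPKM of Klf17 and the 5 ASO-Control libraries at or below 1.06 FPKM, and Mettl3-ASO replicate 1 combines the lowest Klf17 with the highest Klf5 of its group.

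Klf6, a widely expressed activator studied as a tumour suppressor, had the largest fall. It was at 7.72, 2.21, 2.69, 0.83 and 2.51 FPKM in Mettl3-ASO replicates 1 to 5, and at 17.5, 22.8, 18.4, 9.02 and 6.15 FPKM in ASO-Control replicates 1 to 5. Replicate 1 of Mettl3-ASO exceeded replicate 5 of ASO-Control, so the groups overlapped over all libraries but not within a batch. The mean was 3.19 ± 2.64 FPKM in Mettl3-ASO and 14.8 ± 6.94 FPKM in ASO-Control (SD, n = 5 each). Klf6 fell by 2.35 ± 0.40 on the log2 scale (SE; edgeR adjusted p = 4.02e-04), a 5.10-fold lower level. The trophectoderm genes Krt8, Krt18 and Gata3, picked after their values were seen, fell too, with log2 fold changes of −2.12 ± 0.37, −2.71 ± 0.38 and −2.19 ± 0.37 (edgeR adjusted p = 5.41e-04, 1.05e-04 and 3.77e-04). Tead4 (0.17 ± 0.13, adjusted p = 0.274) and Tfap2c (−0.16 ± 0.14, adjusted p = 0.362), also known from trophectoderm, did not pass the test. The part of these genes in the levels of Klf5 and Klf6 was not tested.

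Klf3, which represses through CtBP, rose 3.22-fold (log2 1.69 ± 0.36, SE; edgeR adjusted p = 0.00191). It was at 10.7, 22.2, 9.01, 7.12 and 8.14 FPKM in Mettl3-ASO replicates 1 to 5, and at 1.61, 3.69, 3.11, 3.44 and 4.35 FPKM in ASO-Control replicates 1 to 5. The groups did not overlap, and replicate 2 of Mettl3-ASO was the highest by a wide margin. The log2 fold change was 2.62 ± 0.59 in the untagged libraries and 1.12 ± 0.24 in batch 2. The test of that difference gave an unadjusted p of 0.0246 and an adjusted p of 1 in edgeR. Of the annotated exon bases of Klf3, 3.59% are shared with Gm20033 on the opposite strand, and the other 9 members share none with another gene. The expected counts of all 10 members were whole numbers in every library (within 0.005). Klf3 lies on chromosome 5 at 64803388 to 64832901 and Klf6 on chromosome 13 at 5861482 to 5870394 (GRCm38).

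The Sin3-binding members moved both ways. Klf9, a gene responsive to glucocorticoid and thyroid hormone in many tissues, was at 23.0, 13.4, 9.10, 12.4 and 7.65 FPKM in Mettl3-ASO replicates 1 to 5. It was at 11.5, 7.42, 6.58, 6.64 and 4.31 FPKM in ASO-Control replicates 1 to 5. The ranges overlapped but were apart within each batch, and Klf9 rose 1.70-fold (log2 0.77 ± 0.20, SE; edgeR adjusted p = 0.00601). Klf10, an early response gene of TGF-beta signalling, was at 7.86, 5.20, 2.18, 4.59 and 5.80 FPKM in Mettl3-ASO replicates 1 to 5. It was at 8.93, 10.2, 9.23, 9.75 and 9.62 FPKM in ASO-Control replicates 1 to 5, a narrow range that lay above every Mettl3-ASO library. Klf10 fell by 0.99 ± 0.24 on the log2 scale (edgeR adjusted p = 0.00493). In GRCm38, Klf9 lies on chromosome 19 at 23141226 to 23168134 and Klf10 on chromosome 15 at 38291463 to 38300706.

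Klf13 and Klf16 were the least changed. Klf13 was at 4.62, 2.43, 2.54, 2.65 and 2.06 FPKM in Mettl3-ASO replicates 1 to 5, and at 5.03, 4.94, 4.06, 3.47 and 2.72 FPKM in ASO-Control replicates 1 to 5. The groups overlapped, though not within a batch, and Klf13 fell by 0.56 ± 0.17 on the log2 scale (SE; edgeR adjusted p = 0.0184). That call was lost with limma on log2 FPKM or TPM values (adjusted p = 0.0646 to 0.0705), with scaling by library totals (0.0518) and without ASO-Control replicate 3 (0.0557). Klf16 stayed low, at 0.66 to 2.03 FPKM in Mettl3-ASO and 0.74 to 1.33 FPKM in ASO-Control, with a log2 fold change of 0.10 ± 0.34 (adjusted p = 0.82). Its counts were 16 to 78 per library in Mettl3-ASO, against 23 to 103 in ASO-Control. In GRCm38, Klf13 lies on chromosome 7 at 63886351 to 63938915 and Klf16 on chromosome 10 at 80567124 to 80577321.

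**Figure D3:**
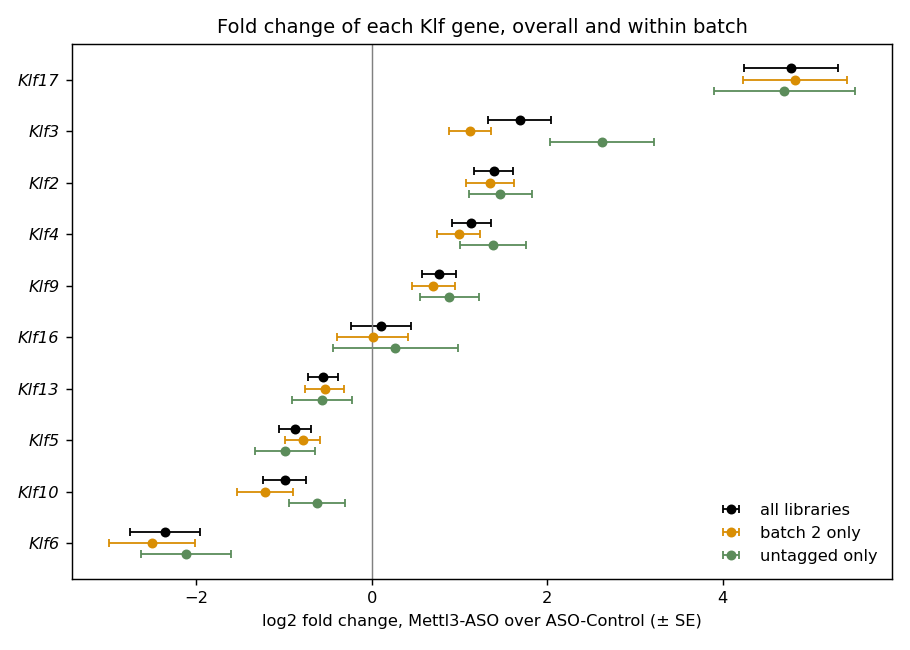
Log2 fold change of Mettl3-ASO over ASO-Control (horizontal axis, bars are SEs) for each Klf gene over all libraries, in batch 2 and in untagged libraries. For the 9 called genes the 3 estimates have one sign, from Klf17 at 4.78 over all libraries to Klf6 at −2.35.

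The 9 called members had log2 fold changes of one sign in both batches, while Klf16 was near 0 in batch 2 (0.01 ± 0.40, SE). In batch 2 alone, where 39% of tested genes were called, 8 of the 9 members kept their call and Klf13 did not (log2 −0.53 ± 0.22, edgeR adjusted p = 0.0825). In the 4 untagged libraries alone, where 6.26% of tested genes were called, Klf17 alone was called (log2 4.70 ± 0.81, edgeR adjusted p = 0.0274). Klf17 had passed the filter only through its level in Mettl3-ASO. The other members called over all libraries had adjusted p from 0.05 to 0.325 in the untagged libraries. The group effect did not differ between batches for any gene by the adjusted test (0 of 9522 with edgeR and 0 with limma-voom). At an unadjusted p under 0.05 there were 159 such genes with edgeR and 117 with limma-voom. For 9 members a two-sided exact permutation test within batches gave p = 0.0167, the smallest that 120 relabellings allow, and for Klf16 p = 0.75. That smallest p follows whenever the groups are apart within each batch in one direction, as they were for 39.6% of all tested genes. It therefore restates the separation within batches given above and adds nothing to it.

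The order of the members by level per length differed between the groups. In Mettl3-ASO the mean FPKM ran Klf5 62.7, Klf2 41.7, Klf4 18.4, Klf17 14.4, Klf9 13.1, Klf3 11.4, Klf10 5.13, Klf6 3.19, Klf13 2.86 and Klf16 1.15. In ASO-Control it ran Klf5 112, Klf2 15.5, Klf6 14.8, Klf10 9.55, Klf4 7.91, Klf9 7.28, Klf13 4.04, Klf3 3.24, Klf16 1.02 and Klf17 0.516. Klf17 thus stood at rank 4 in Mettl3-ASO (3 in batch 2 and 6 in the untagged libraries) and was the lowest member in ASO-Control. Many neighbours in these orders were not apart. In Mettl3-ASO the ranges of neighbours were separate only between Klf2 and Klf4 and between Klf13 and Klf16, and Klf5 exceeded Klf2 in 3 of 5 libraries. In ASO-Control they were separate between Klf5 and Klf2 and between Klf3 and Klf16, and Klf5 exceeded Klf2 in 5 of 5 libraries.

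Klf5 held less of the family's transcripts after Mettl3-ASO. Of the summed TPM (transcript abundance scaled by length to a fixed library sum) of all 17 Klf genes in the tables, Klf5 made up 45.5%, 26.9%, 31.9%, 32.5% and 25.3% in Mettl3-ASO replicates 1 to 5. Its share was 66.2%, 65.8%, 59.6%, 54.7% and 47.3% in ASO-Control replicates 1 to 5. The shares of Klf5 did not overlap between groups, although the closest libraries, Mettl3-ASO replicate 1 and ASO-Control replicate 5, were near each other. Klf2 made up 14.6% to 28.6% in Mettl3-ASO, against 5.71% to 13.3% in ASO-Control. Klf17 made up 1.50% to 15.8% in Mettl3-ASO, against 0.138% to 0.673% in ASO-Control. The summed TPM of the 17 genes itself overlapped, at 129.5 to 286 TPM in Mettl3-ASO and 119 to 280 TPM in ASO-Control. The ratio of Klf5 to Klf2 TPM was 0.94 to 3.11 in Mettl3-ASO, against 3.55 to 11.3 in ASO-Control.

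**Figure D4:**
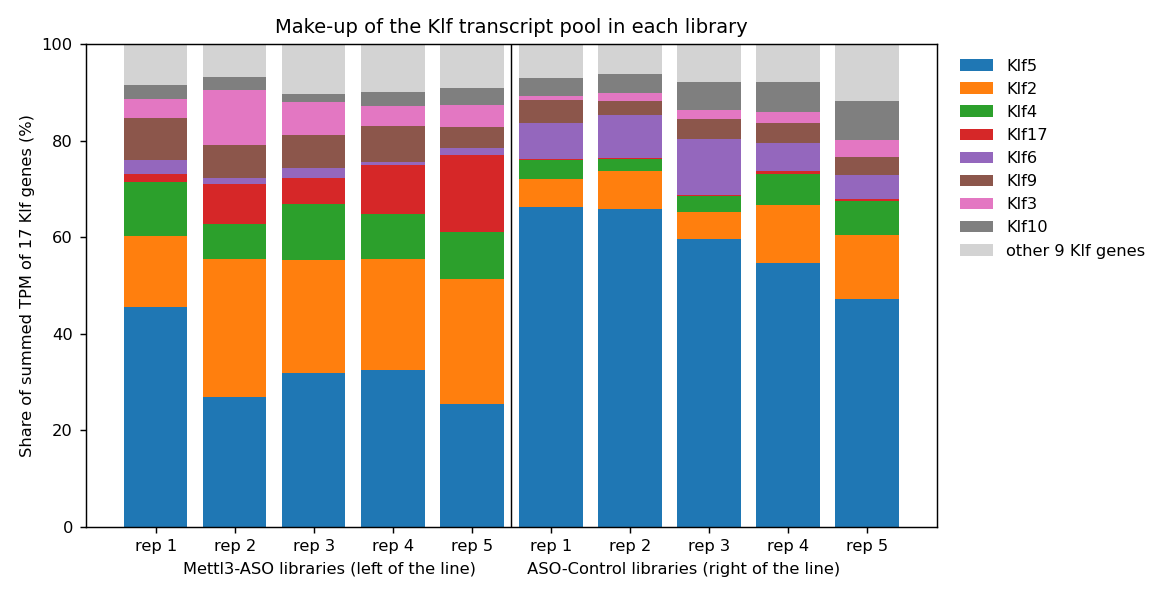
Share of the summed TPM of 17 Klf genes (vertical axis, percent) in each library. Mettl3-ASO is to the left of the line and ASO-Control to the right. Klf2, Klf3, Klf4, Klf5, Klf6, Klf9, Klf10 and Klf17 are drawn singly and the remaining genes together in grey. Klf5 takes 25.3% to 45.5% in Mettl3-ASO, against 47.3% to 66.2% in ASO-Control, and the share of Klf17 reaches 15.8% in Mettl3-ASO replicate 5.

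The remaining Klf genes and the related Sp factors were mostly low or not called. Of 7 other Klf genes, 4 passed the filter and 1 of these rose, as did 25.4% of all tested genes. Klf7, an activator known from neuronal development, was at 0.96 to 2.58 FPKM in Mettl3-ASO and 0.34 to 0.70 FPKM in ASO-Control, and rose 3.48-fold (log2 1.80 ± 0.38, SE; edgeR adjusted p = 0.00192). It passed the filter only through its level in Mettl3-ASO. Klf1, Klf8 and Klf11 did not pass the test. Klf12, Klf14 and Klf15 stayed at or below 0.47 FPKM in every library. Of 9 Sp genes, which bind similar GC-rich elements, 3 passed the filter. For Sp1 the log2 fold change was 0.41 ± 0.15 (edgeR adjusted p = 0.0312), a call lost in 8 alternatives with an adjusted p up to 0.0814 beside that of the untagged libraries, while Sp2 and Sp3 did not pass the test.

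Among the corepressors that KLF proteins recruit, 3 of 7 fell and none rose. The list's median change was −0.30 on the log2 scale, against 0.01 for all tested genes. Sap30, a subunit of the Sin3 complex, was at 14.5 to 25.3 FPKM in Mettl3-ASO and 40.2 to 56.5 FPKM in ASO-Control and fell by 1.38 ± 0.14 on the log2 scale (SE; edgeR adjusted p = 1.25e-05). Ctbp2, a partner of Klf3, fell by 1.27 ± 0.23 (adjusted p = 6.53e-04) and the deacetylase gene Hdac2 fell by 0.53 ± 0.10 (adjusted p = 0.00107). The other listed CtBP gene, Ctbp1, did not pass the test (log2 fold change −0.30 ± 0.23, edgeR adjusted p = 0.293). Of 3 coactivator genes, Ep300 rose by 0.94 ± 0.21 (adjusted p = 0.00241). In the untagged libraries alone the calls of Ctbp2, Hdac2 and Ep300 were lost (edgeR adjusted p = 0.209, 0.194 and 0.185). Of all tested genes 49.4% were called, 24% lower and 25.4% higher. No set test was run, and counts from lists this short do not set the cofactors apart.

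Inputs known to act on Klf genes in mouse embryonic stem cells were mixed. LIF signalling through Stat3 sustains Klf4 there, and of its 6 listed genes 4 were tested. Stat3 fell by 1.45 ± 0.38 on the log2 scale (SE; edgeR adjusted p = 0.00655), while its feedback inhibitor Socs3 rose 4.35-fold (adjusted p = 2.9e-05). The kinase gene Jak1 had an adjusted p of 0.0304 (log2 0.35 ± 0.12), and its call was lost in 7 alternatives beside the untagged libraries, with an adjusted p up to 0.213. The receptor genes Lifr and Il6st stayed at or below 0.15 FPKM in all libraries. Of 7 genes of FGF and ERK signalling, the growth factor gene Fgf4 rose 9.91-fold, with 7.18 to 14.6 FPKM in Mettl3-ASO and 0.46 to 1.59 FPKM in ASO-Control (adjusted p = 1.45e-05). Its mean in ASO-Control, 0.982 FPKM, was under the filter's limit, so it too was tested only through Mettl3-ASO. The kinase gene Map2k2 fell by 0.82 ± 0.16 (adjusted p = 9.06e-04). Of 6 listed genes of TGF-beta signalling, which induces Klf10, 4 were tested and none of these fell. Of all tested genes 25.4% rose and 24% fell, so the counts of these lists do not set the inputs apart. The receptor gene Tgfbr2 and Smad3 were under the filter and not tested. Tgfbr2 was at 0 to 0.03 FPKM in Mettl3-ASO and 0.03 to 0.19 FPKM in ASO-Control, and Smad3 averaged 0.814 and 0.936 FPKM. Smad4 and Tgfbr1 had log2 fold changes of 0.49 ± 0.17 and 0.47 ± 0.17 (adjusted p = 0.0283 and 0.0303). Each of these calls was lost in 7 alternatives beside the untagged libraries, with adjusted p up to 0.108 for Smad4 and 0.145 for Tgfbr1.

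Of 5 tested genes that control the stability of KLF proteins, Btrc, a subunit of a ubiquitin ligase, fell by 0.73 ± 0.17 on the log2 scale (SE; edgeR adjusted p = 0.00398). For the ubiquitin ligase gene Smurf1 the log2 fold change was 0.70 ± 0.25 (adjusted p = 0.0325), lost in 10 alternatives with an adjusted p up to 0.115 beside that of the untagged libraries. Smurf1 averaged 0.942 FPKM in ASO-Control and passed the filter only through Mettl3-ASO. Protein levels were not measured. Among 10 tested pluripotency factors and genes described as KLF targets, 4 rose, 3 fell and the median log2 fold change was 0.02. Over all tested genes 25.4% rose and 24% fell. Esrrb, a target of Klf factors in mouse embryonic stem cells, was at 3.61 to 5.58 FPKM in Mettl3-ASO and 1.08 to 3.20 FPKM in ASO-Control and rose 2.42-fold (adjusted p = 0.00149). Sall4 and Nr5a2 rose by 0.75 ± 0.10 and 1.10 ± 0.19 on the log2 scale (adjusted p = 1.02e-04 and 4.27e-04). Pou5f1 fell by 0.64 ± 0.15 (adjusted p = 0.00332; 0.0937 with no batch term).

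Members also differed in how alike their profiles were over the 10 libraries, given as Pearson's r of log2(FPKM + 1) and as a description only, since all points share group, batch and depth. Klf5 and Klf13 were the closest pair of members (r = 0.978), and for Klf13 none of the 6021 genes that averaged 5 FPKM or more was closer. Klf6 ran with both (r = 0.863 with Klf5 and 0.861 with Klf13). Klf17 and Klf2 ran together (r = 0.907), as did Klf2 and Klf3 (r = 0.88), while Klf17 and Klf6 were opposed (r = −0.893). Among the members Klf9 was closest to Klf4 (r = 0.746) and Klf16 to Klf9 (r = 0.632). Among those 6021 genes, the closest to Klf17 were Mad2l1bp (r = 0.992) and Ammecr1l (r = 0.991), to Klf2 Nktr (r = 0.983) and to Klf9 Atg9a (r = 0.986). The closest to Klf4 were Gfm1 (r = 0.974) and Myc (r = 0.963), to Klf5 Cars (r = 0.973) and to Klf6 Cap1 (r = 0.969).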

How the data were processed

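RNA of 10 mouse morula libraries, 5 per group, was measured with the SMART-Seq v4 PLUS kit on polyA RNA. The deposited tables give expected counts, FPKM and TPM per gene, which the authors made with STAR 2.7.10 and RSEM 1.3.3 on mm10, per the submitters' processing notes. The annotation release and strand setting are not given in the sources used here. Expected counts share reads between genes by estimation, which can move genes with close copies. FPKM and TPM are relative to the library, so a large rise of some genes lowers the others.

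Groups and batches came from the labels. The deposited expected counts, rounded to integers, went into edgeR 4.0.16 (quasi-likelihood, TMM scaling, batch and group as terms, R 4.3.3) for the 9522 genes whose FPKM averaged 1 or more. Genes were called at a Benjamini-Hochberg adjusted p under 0.05. Fold changes are Mettl3-ASO over ASO-Control. The steps were tested on simulated data that held no batch effect. Only 200 of 9522 genes were changed in them, while 49.4% of tested genes were called in the real data, so recovery may differ. In the simulation 68% of 2-fold changes were recovered with all 10 libraries, 27% with batch 2 and 20% with the untagged libraries. Of 4-fold changes 97%, 91% and 71% were recovered. False genes made up 4.1%, 4.1% and 11.7% of the calls. For changes near 2-fold, a call lost in the untagged libraries is therefore weak evidence of no change. DESeq2 1.42.0, limma 3.58.1, other scalings, filters and pseudocounts, single batches and left-out libraries were alternatives. Gene positions are from GENCODE M21 (GRCm38) and promoter windows from RefSeq.

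All 8 pairs of libraries of one group and batch differed beyond sampling noise, and pairs across batches were not checked. Totals of 9905830 to 32327283 expected counts limit precision for low genes, and no molecular identifiers were used, so counts carry counting error only as a lower limit. Same-numbered libraries of the 2 groups deviated together (r = 0.182 to 0.339, each best matched by its own number), although the labels do not state a pairing and the 2 untagged values mirror each other by construction. Named genes were the 10 members, and in each pathway list up to 4 called genes by p. Nanog, Tfcp2l1 and other list genes past that rule were left out, and the marker genes named were chosen after their values were seen. Members and lists were chosen with earlier results of these data known.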

Additional observations from a re-analysis of the deposited data

Results flagged for a closer look

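In 5 of the 20 sets of 5 libraries (10 Klf genes in each of 2 groups), 1 library lay apart by a gap test. The critical value was 0.71, which marks about 1 in 20 sets of alike, independent values. Here each set mixed both batches without adjustment and several members ran together, so that rate need not hold. The libraries flagged were all untagged. Mettl3-ASO replicate 1 was the highest of its group for Klf4 (30.05 FPKM), Klf5 (120.45 FPKM), Klf6 (7.72 FPKM) and Klf13 (4.62 FPKM). Mettl3-ASO replicate 2 was the highest of its group for Klf3 (22.18 FPKM). Without Mettl3-ASO replicate 1 the log2 fold changes were 0.96 for Klf4, −1.01 for Klf5 and −2.68 for Klf6, and all 9 calls were kept.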

How the results depend on the processing

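Of 278 comparisons of a Klf gene's value under an alternative with its reported value, 261 kept direction and side of the threshold, 15 lost the call and 2 reversed. Klf16, never called, reversed to −0.15 without Mettl3-ASO replicate 1 and to −0.0074 without ASO-Control replicate 2. The untagged libraries alone called 596 genes, 361 higher and 235 lower, with 1 Klf gene higher and 0 lower. Of the 22 genes called in the pathway lists, 19 lost their call in these libraries. There the log2 fold changes were 1.46 for Klf2, 2.62 for Klf3, 1.38 for Klf4, −0.99 for Klf5, −2.12 for Klf6, 0.89 for Klf9, −0.62 for Klf10 and −0.57 for Klf13. Klf13 also lost its call in batch 2 alone (−0.53), with library totals (−0.50) and with limma on log2(FPKM + 1) (−0.40), log2(TPM + 1) (−0.38), log2(FPKM + 0.1) (−0.51) and log2(FPKM + 5) (−0.20). The cause was not tested.

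With one library left out, 5 Klf genes were higher in every case and 3 to 4 lower, and 4194 to 4800 genes were called. The log2 fold changes ranged over 1.25 to 1.50 (Klf2), 1.33 to 1.86 (Klf3), 0.96 to 1.26 (Klf4), −1.01 to −0.74 (Klf5), −2.68 to −2.02 (Klf6), 0.66 to 0.85 (Klf9), −1.13 to −0.78 (Klf10), −0.66 to −0.46 (Klf13), −0.15 to 0.25 (Klf16) and 4.43 to 5.15 (Klf17). The replicate block called 5246 genes and changed no call of a Klf gene. Klf13 and Klf16 were not tested at a mean FPKM of at least 5. The share of higher genes among calls was 51.4%, and 56.5% with upper-quartile scaling. Of 20 ranks by level (10 genes in 2 groups), 6 moved in batch 2 alone and 7 in the untagged libraries. Control counts of Klf17 were 14 to 114 per library.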
